A study of Mus musculus with 5 samples.

Results

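The monocyte-attracting chemokines and their receptors were followed across the cells of the mouse kidney after ischemia-reperfusion. The 9 genes were picked by symbol from the 32285 genes of the count matrix, and all 9 were found: the CC ligands Ccl2, Ccl7, Ccl12, Ccl8, Ccl6 and Ccl9, the receptor Ccr2, the ligand Cx3cl1 and its receptor Cx3cr1. The study used unilateral ischemia-reperfusion (UIR) in male C57BL/6J mice aged 6 to 8 weeks, in which the left renal pedicle was clipped and then released, as a model of acute kidney injury (AKI) that goes on to chronic disease. Kidneys came from sham mice, which had the same surgery without the clamp, and from UIR mice 1, 3, 14 or 28 days later, so that there were 5 samples, 1 per group, each made from 3 mice. The matrix held 5 libraries, fewer than the matrices that the study's methods count, told apart by the number at the end of each barcode, and no label tied a number to a sham or UIR sample. All cells were therefore analysed as 1 pooled sample, libraries are called by number alone, and no level below is a level of sham or of any day after UIR.

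After cell calling and quality filters 57609 cells were kept, with a median of 4614 unique molecular identifiers (UMIs, each standing for 1 captured transcript) and 1697 genes. Libraries 1 to 5 gave 10020, 11311, 18948, 8239 and 9091 cells, and 51072868 to 94795587 UMIs each. Between libraries, 351 barcode sequences were shared, by 703 cells (1.22% of cells). The labels give Goblet cell as the cell type of all 5 samples, and the data went against it. The 7 goblet markers were each found in at most 0.0642% of cells, while proximal tubule-like cells alone were 67.4% of the cells.

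Chemokines are small secreted proteins that bind receptors coupled to G proteins and draw leukocytes along a gradient. Ccl2, Ccl7 and Ccl12 are ligands of Ccr2, through which Ly6c-high monocytes leave the bone marrow and enter injured tissue, and Ccl8 is their close relative, known in the mouse as a ligand of Ccr8 as well. Ccl6 and Ccl9 are CC ligands of the mouse that act through Ccr1, while Cx3cl1 (fractalkine) is made as a protein tethered to the cell surface and is shed by proteases, and Cx3cr1 on monocytes and macrophages binds it. In the kidney Ccr2-bearing monocytes are known as a source of the macrophages that gather after ischemia.

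In the GENCODE vM21 annotation of GRCm38, Ccl2 (chr11:82035571-82037453), Ccl7 (chr11:82045712-82047525), Ccl12 (chr11:82101845-82103400) and Ccl8 (chr11:82115185-82116799) lie in this order on the plus strand within 81229 bases. Ccl9 (chr11:83572919-83578636) and Ccl6 (chr11:83587882-83593087) lie farther along the same chromosome on the minus strand, within 20169 bases. Cx3cl1 is at chr8:94772009-94782427 on the plus strand, Ccr2 at chr9:124101950-124113557 on the plus strand and Cx3cr1 at chr9:119901616-120069879 on the minus strand. RefSeq promoter windows of GRCm38.p6 were matched for 7 of the 9 genes, not for Ccl2 and Ccl7. The 250 bases before the annotated start are shown for Ccl12 and Ccl8, which shared their highest cell class below, and for Ccl9 and Ccl6, which lie side by side, to show how the neighbours differ. The stretches are chr11:82101595-82101844 and chr11:82114935-82115184 on the plus strand, and chr11:83578637-83578886 and chr11:83593088-83593337 on the minus strand, each read 5′ to 3′ on the strand of its gene. Capitals mark TATAAA, the TATA box.
Ccl12: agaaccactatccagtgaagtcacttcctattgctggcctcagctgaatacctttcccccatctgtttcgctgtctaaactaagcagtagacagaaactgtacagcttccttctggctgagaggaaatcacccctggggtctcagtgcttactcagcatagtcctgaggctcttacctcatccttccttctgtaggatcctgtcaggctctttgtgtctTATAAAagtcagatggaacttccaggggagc
Ccl8: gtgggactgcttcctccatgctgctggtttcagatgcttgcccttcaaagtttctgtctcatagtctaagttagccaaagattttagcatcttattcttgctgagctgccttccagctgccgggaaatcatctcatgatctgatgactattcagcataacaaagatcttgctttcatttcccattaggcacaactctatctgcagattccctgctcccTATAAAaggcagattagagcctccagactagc
Ccl9: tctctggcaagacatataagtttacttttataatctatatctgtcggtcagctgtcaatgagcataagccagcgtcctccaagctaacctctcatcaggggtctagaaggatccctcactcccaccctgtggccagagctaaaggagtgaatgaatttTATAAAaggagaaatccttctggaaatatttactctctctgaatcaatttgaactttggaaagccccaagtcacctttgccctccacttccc
Ccl6: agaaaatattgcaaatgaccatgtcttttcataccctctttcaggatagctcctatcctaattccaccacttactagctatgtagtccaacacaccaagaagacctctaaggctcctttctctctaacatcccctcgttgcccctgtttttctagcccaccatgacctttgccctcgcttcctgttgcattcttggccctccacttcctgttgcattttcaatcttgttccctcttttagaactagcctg

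TATAAA began 31 bases before the start of Ccl12 and 32 bases before that of Ccl8, 92 bases before that of Ccl9 and was not in the Ccl6 window. In Cx3cl1 it began 6 bases before the start used by RefSeq, which lies farther along the gene than the GENCODE start given above. On either strand, 13.6% of the 32851 windows of 300 bases (250 before to 50 after a start) held these letters. The AP-1 letters TGANTCA were found in Ccl9, 53 bases before the start, and in 7.81% of all windows. GAGGAA, the core letters of PU.1 sites, were found in Ccl12, Ccl8 and Cx3cl1 and in 28.3% of all windows. The letters of a C/EBP site (TTGCNNAA, in 10.8% of all windows) were in none of the 7 windows. In Ccl9 the TATAAA match overlapped another on the opposite strand, and no different motifs overlapped in these windows. The matches describe the letters alone.

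Monocyte/macrophage-like cells, named from 12 markers that were each detected in at least 10% of them, were the named class with the highest level of 7 of the 9 genes (the 6 CC ligands and Cx3cr1) when the libraries were pooled. Levels are UMIs of a gene per 1000000 UMIs of the class (CPM), summed over the class, and 95% intervals cover counting error only. In library 1, 3 of these first places lay elsewhere: Ccl2 was at 471 CPM in injured epithelial-like against 232 CPM in monocyte/macrophage-like cells, Ccl6 at 1712 CPM in neutrophil-like against 653 CPM, and Ccl9 at 491 CPM in dendritic-like against 313 CPM. Over all libraries Ccl2 stood at 759.7 CPM (95% interval 742 to 778) in the 1960 monocyte/macrophage-like cells and at 8.95 CPM over all other cells. The corresponding levels were 369.6 and 1.85 CPM for Ccl7, 220.0 and 0.751 CPM for Ccl12, and 80.9 and 0.145 CPM for Ccl8. As log2 ratios of the class over all other cells these were 6.41 (95% interval 6.34 to 6.47) for Ccl2, 7.64 (95% interval 7.51 to 7.77) for Ccl7, 8.19 (95% interval 7.998 to 8.396) for Ccl12 and 9.12 (95% interval 8.69 to 9.59) for Ccl8. Ccl6 had a log2 ratio of 6.23, Ccl9 6.57, Ccr2 5.67 and Cx3cr1 7.39. Cx3cl1 went the other way, at -2.09 (95% interval -2.60 to -1.63).

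Thus 8 of the 9 genes were at least 4-fold higher in monocyte/macrophage-like cells, against 7.63% of the 13850 genes with at least 200 UMIs, and their median log2 ratio was 6.57 against -0.40 over those genes. With 1 pooled sample the comparison has no replicate and no test. No member was among the markers that named a class or among the genes that formed the clusters. Of proximal tubule-like cells, the largest class, 0.574% held a Ccl2 UMI at a median depth of 5468 UMIs, against 33.6% of monocyte/macrophage-like cells at 3584 UMIs. The richest proximal tubule-like cell held 42 Ccl2 UMIs, and how much of this share is background was not tested. For the other CC ligands and the receptors the share in proximal tubule-like cells lay between 0.0669% (Ccl8) and 0.811% (Ccl6). In monocyte/macrophage-like cells it lay between 5.20% (Ccl8) and 62.6% (Ccl6). With each cell thinned to 1000 UMIs the share with Ccl2 was 23.1% of 1722 monocyte/macrophage-like cells and 0.13% of 35260 proximal tubule-like cells.

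**Figure D1:**
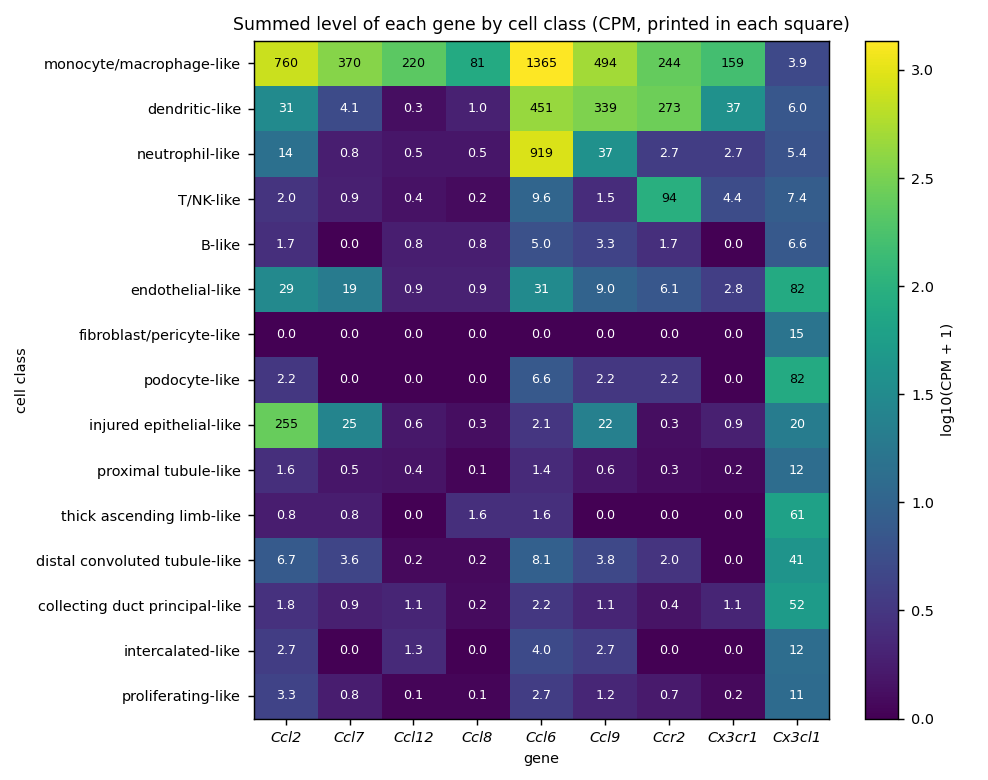
Summed level of each of the 9 genes (columns) in 15 named cell classes (rows), in CPM, with the colour on a scale of log10(CPM + 1). With the libraries pooled, the monocyte/macrophage-like row holds the highest value of every column except Ccr2, which is highest in dendritic-like cells (273 CPM against 244 CPM, the reverse in library 3 at 272 and 446 CPM, and 210.4 CPM without the 72 dendritic-like cells richest in monocyte/macrophage markers), and Cx3cl1.

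Pooled over libraries, monocyte/macrophage-like cells were 3.40% of the cells and held most UMIs of 8 genes. Their share of all UMIs in kept cells was 94.4% for Ccl8 (759 of 804), 89.9% for Ccl12 (2064 of 2297), 85.8% for Ccl7 (3468 of 4042) and 72.0% for Ccl2 (7128 of 9906). Ccl9 (74.2%), Ccl6 (69.4%) and Ccr2 (60.7%) had a second leukocyte source each, described below. Most Ccr2 UMIs lay outside the class in libraries 1, 2 and 5 (208 inside against 452 outside, 272 against 448 and 18 against 33). They lay inside it in libraries 3 and 4 (1514 against 390 and 279 against 162). Of the Cx3cr1 UMIs 83.5% lay in monocyte/macrophage-like cells, and of the Cx3cl1 UMIs 0.705%. Few cells carried most of the ligand UMIs: the 10% of monocyte/macrophage-like cells richest in each gene held 94.0% of the class's Ccl7 UMIs, 90.5% of Ccl12, 80.0% of Ccl2 and 66.5% of Ccl6, and for the receptors 49.8% of Ccr2 and 57.6% of Cx3cr1.

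**Figure D2:**
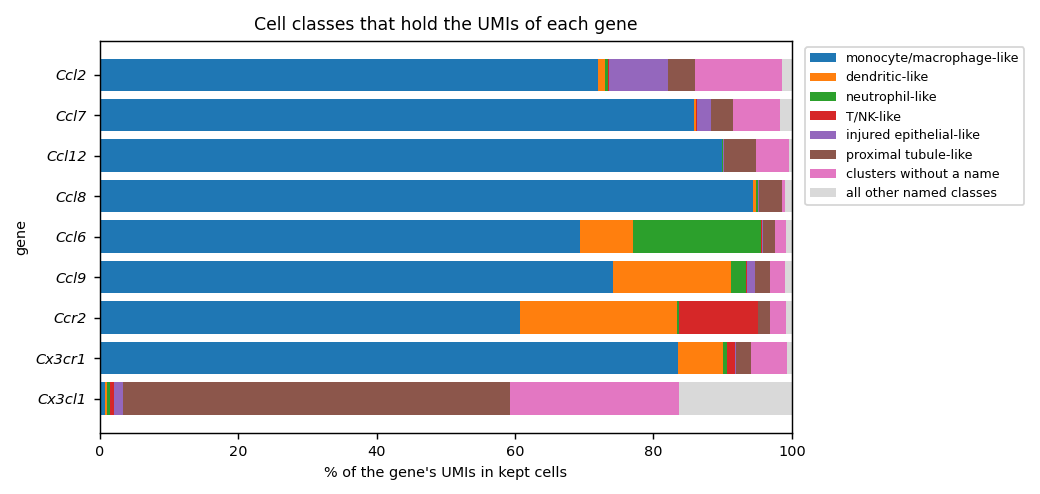
Percent of each gene's UMIs in kept cells (horizontal axis) that lay in each cell class (colours). Pooled over libraries, monocyte/macrophage-like cells hold 60.7% (Ccr2) to 94.4% (Ccl8) of the UMIs of 8 genes, neutrophil-like cells 18.4% of Ccl6, dendritic-like cells 22.7% of Ccr2, and proximal tubule-like cells 55.9% of Cx3cl1. In libraries 1, 2 and 5 most Ccr2 UMIs lie outside monocyte/macrophage-like cells.

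Within the monocyte/macrophage-like cells 5 sub-classes could be named. Classical monocyte-like cells (318, led by S100a8, Ly6c2 and Hp) carry the markers of blood monocytes that enter inflamed tissue, and non-classical monocyte-like cells (100, led by Ace, Ear2 and Pglyrp1) those of patrolling monocytes. Arg1 macrophage-like cells (374, led by Pf4, Ccl2 and Ccl7) had 5 of their 8 markers in at least 10% of cells. C1q macrophage-like cells (406) were 3 sub-clusters, the largest led by Ccl8, H2-Eb1 and Vcam1, and Gpnmb macrophage-like cells (181) were led by Mfge8, Gpnmb and Mmp12. The other 581 cells kept no name, among them 234 led by Kap, Akr1c21 and Cmbl and 169 led by Timp3, Ccn1 and Pck1, whose summed proximal tubule markers reached 5676 and 7816 CPM against 364 to 1028 CPM in the named sub-classes. A further unnamed group had 12 monocyte/macrophage markers at 34612 CPM and proximal tubule markers at 632 CPM. It gave 38 and 68 cells in libraries 1 and 2, at shallow median depths of 755.5 and 790 UMIs. Its Ccl8 was 171 and 350 CPM there, against 622 and 257 CPM in C1q macrophage-like cells. Its Ccl12 was 190 and 413 CPM, against 575 and 416 CPM. The part of droplets with 2 cells in the unnamed groups was not tested.

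Pooled over libraries, Ccl2 and Ccl7 were highest in Arg1 macrophage-like cells and Ccl12 and Ccl8 in C1q macrophage-like cells, but the libraries held different sub-classes and some places turned within them. Ccl2 was at 2178 CPM (95% interval 2103 to 2254) in Arg1 macrophage-like cells, followed by Gpnmb macrophage-like (698 CPM), C1q macrophage-like (555 CPM), classical monocyte-like (379 CPM) and non-classical monocyte-like cells (45.6 CPM). In both libraries with at least 20 cells of each, Ccl2 was instead higher in C1q than in Gpnmb macrophage-like cells, at 408 against 58.6 CPM in library 1 and 647 against 256 CPM in library 2, while library 4 gave the Gpnmb macrophage-like cells 1072 CPM. Ccl7 was at 1028 CPM in Arg1 macrophage-like cells, with 445 CPM in C1q macrophage-like, 343 CPM in Gpnmb macrophage-like and 47.6 CPM in classical monocyte-like cells. Ccl12 was highest in C1q macrophage-like cells (588 CPM (95% interval 549 to 629.9)), ahead of Arg1 macrophage-like cells (462 CPM (95% interval 428 to 498)), an order that library 3 alone could show (1751 and 495 CPM), and stood at 59.6 CPM in Gpnmb macrophage-like and 11.9 CPM in classical monocyte-like cells.

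Ccl8 had 543 of its 759 UMIs in monocyte/macrophage-like cells in the C1q sub-class (388 CPM (95% interval 356 to 422)), against 36.4 CPM in Arg1 macrophage-like, 11.6 CPM in Gpnmb macrophage-like cells and a single UMI in classical monocyte-like cells. The C1q level came from libraries 1 and 2, and in library 3, the 1 library with at least 20 cells of both, Ccl8 was 12.6 CPM (a single UMI) in C1q and 30.1 CPM in Arg1 macrophage-like cells. In a marker gate on single cells in place of the clusters, the C1q levels were 273 CPM for Ccl12 and 105 CPM for Ccl8. In non-classical monocyte-like cells Ccl7, Ccl12 and Ccl8 had 0 UMIs in 100 cells, where 3 UMIs would have made 12.4 CPM. Within the C1q macrophage-like cells Ccl8 differed by sub-cluster, with 584 CPM in the 255 cells led by Ccl8, H2-Eb1 and Vcam1, 6.08 CPM in 74 cells led by Mmp13, Ch25h and Ccl4, and 0 UMIs in 77 cells led by Zmynd15, Tent5c and Ccl5. Ccl12 was high in the first pair of these (689.7 and 948 CPM) and lower in the third (88.1 CPM). These sub-clusters came from different libraries: the first and the third mainly from libraries 1 and 2 (149 and 95 cells, and 21 and 50 cells), while 42 cells of the second were from library 5, where Ccl12 was 200.1 CPM and Ccl8 had no UMI. The first sub-cluster held 60 of the 61 C1q macrophage-like cells with a Ccl8 UMI.

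**Figure D3:**
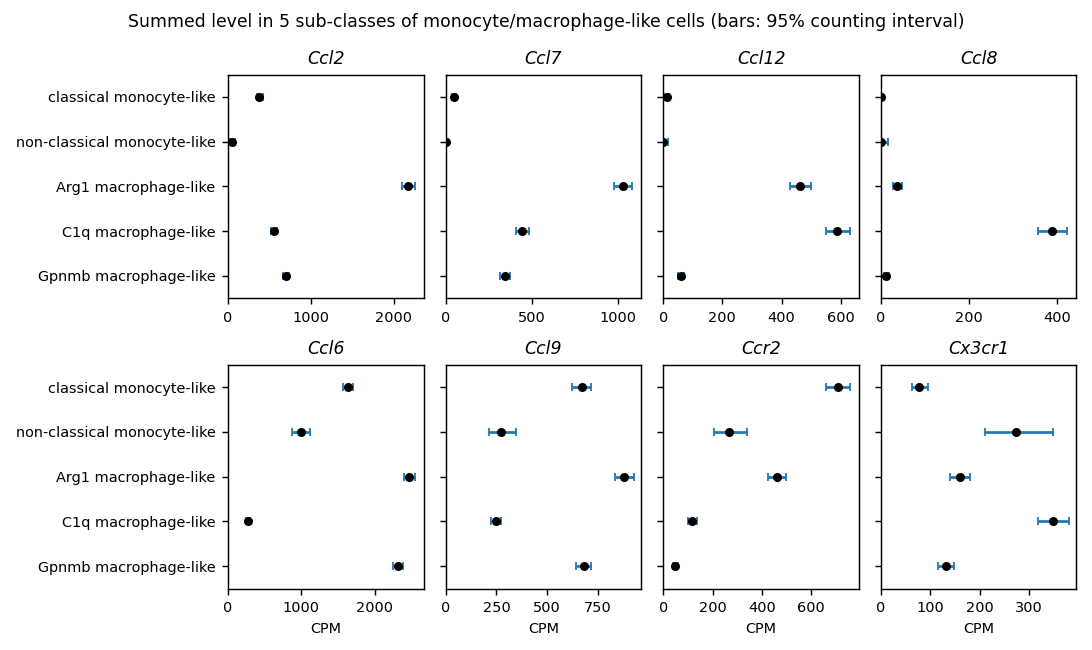
Summed level in CPM (horizontal axes, from 0) of 8 genes in 5 sub-classes of monocyte/macrophage-like cells, with points for the level and bars for the 95% counting interval. Pooled over libraries, Ccl2, Ccl7, Ccl6 and Ccl9 peak in Arg1 macrophage-like cells, Ccl12, Ccl8 and Cx3cr1 in C1q macrophage-like cells, and Ccr2 in classical monocyte-like cells. In library 4 alone, Ccl6 and Ccl9 are higher in classical monocyte-like than in Arg1 macrophage-like cells.

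Against all other monocyte/macrophage-like cells pooled over libraries, 6 of the 8 members with enough UMIs were at least 2-fold higher in Arg1 macrophage-like cells (Ccl2, Ccl7, Ccl12, Ccl6, Ccl9 and Ccr2), where 1.26% of 5061 genes were, and Ccl8 was at least 2-fold lower, where 9.29% of genes were. Arg1 macrophage-like cells came mainly from libraries 3 and 4 (264 and 82 of the 374), so the pooled ratio also compares libraries, and its size and in part its direction changed within them. The log2 ratio for Ccl2 was 2.14 (95% interval 2.07 to 2.21) pooled, 1.61 in library 3 and 0.91 in library 4. That for Ccl7 was 2.06 (95% interval 1.96 to 2.16) pooled, 1.79 in library 3 and 1.006 in library 4. Ccl12 stayed at least 2-fold higher in both (1.93 and 1.12). Ccl6 and Ccl9 were so in library 3 (1.28 and 1.23) and not in library 4 (0.17 and 0.69), and Ccr2 in neither (0.39 and 0.51, against 1.18 pooled). Ccl8 turned round, from -1.29 (95% interval -1.72 to -0.89) pooled to 2.05 (1.16 to 2.99) in library 3 and 1.96 (0.98 to 2.96) in library 4, where its UMIs lay in 2 and 3 Arg1 macrophage-like cells.

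In C1q macrophage-like cells 3 members were at least 2-fold higher in the pooled cells against 6.97% of genes: Ccl8 at 3.84 (95% interval 3.61 to 4.08), Ccl12 at 1.92 (95% interval 1.79 to 2.05) and Cx3cr1 at 1.47 (95% interval 1.31 to 1.63). Within libraries 1, 2, 3 and 5 Ccl12 was at 2.89, 2.61, 3.07 and 0.79 and Cx3cr1 at 0.96, 1.39, 1.81 and 1.21. The library 5 intervals were wide, at -0.27 to 1.95 for Ccl12 and -0.06 to 2.67 for Cx3cr1. Ccl8 was at 3.53 and 2.82 in libraries 1 and 2 and at -0.20 in library 3, on a single UMI. Libraries 1 and 2, with 179 and 150 of the 406 cells, also had Ccl2 (1.69 and 1.74) and Ccl7 (2.11 and 2.62) at least 2-fold higher, against -0.52 and 0.32 in the pooled cells. Another 3 members, Ccl6, Ccr2 and Ccl9, were at least 2-fold lower in the pooled cells, at -2.51, -1.20 and -1.12, against 20% of genes. Ccl6 was lower in each library, at -1.61, -2.44, -3.29 and -1.12 in libraries 1, 2, 3 and 5. Ccl9 was at -0.55, -0.98, -2.06 and -1.51, and Ccr2 was not lower in libraries 1 and 2 (0.23 and 0.14) and was in libraries 3 and 5 (-2.59 and -2.31). Counts were small in library 5, where Ccl9 rested on 2 against 4 UMIs (-4.97 to 1.30) and Ccr2 on 4 against 14 UMIs (-4.38 to -0.64). In library 3 Ccr2 had 6 UMIs in C1q macrophage-like cells (-4.04 to -1.46).

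In classical monocyte-like cells Ccr2 alone was at least 2-fold higher in the pooled cells, against 5.02% of genes, and 5 members were at least 2-fold lower, against 11.4% of genes. These 5 were Ccl8, Ccl12, Ccl7, Cx3cr1 and Ccl2, of which Ccl7 stood at -3.13 (95% interval -3.53 to -2.74) and Ccl2 at -1.10 (95% interval -1.24 to -0.96). Within libraries 2, 3 and 4 Ccl2 was lower still, at -2.72, -1.88 and -1.98, and Ccl9 reached 1.11 in library 4. Cx3cr1 was 2-fold lower in none of them, at -0.59, -0.88 and -0.44. Cx3cl1, with 37 UMIs in these cells, was not compared.

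The level of the ligands in monocyte/macrophage-like cells differed between libraries. The class gave 385, 493, 773, 242 and 67 cells in libraries 1 to 5, or 3.84%, 4.36%, 4.08%, 2.94% and 0.737% of each library. Ccl2 stood at 232, 288, 1393, 839 and 51.3 CPM in libraries 1 to 5, so that library 3 was highest and library 5, with 7 UMIs, lowest. Ccl7 had the same library on top, at 295, 110.3, 629.7 and 369 CPM in libraries 1 to 4, and 0 UMIs in library 5, where 3 UMIs would have made 22.0 CPM. Ccl12 varied less, at 264, 140.4, 244, 257 and 279 CPM, with library 2 lowest and the rest with overlapping intervals. Ccl8 was instead highest in library 1, at 267, 82.5, 14.4, 26.9 and 7.33 CPM, and rested on a single UMI in library 5. In none of these orders can a library be read as a sham or UIR sample.

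**Figure D4:**
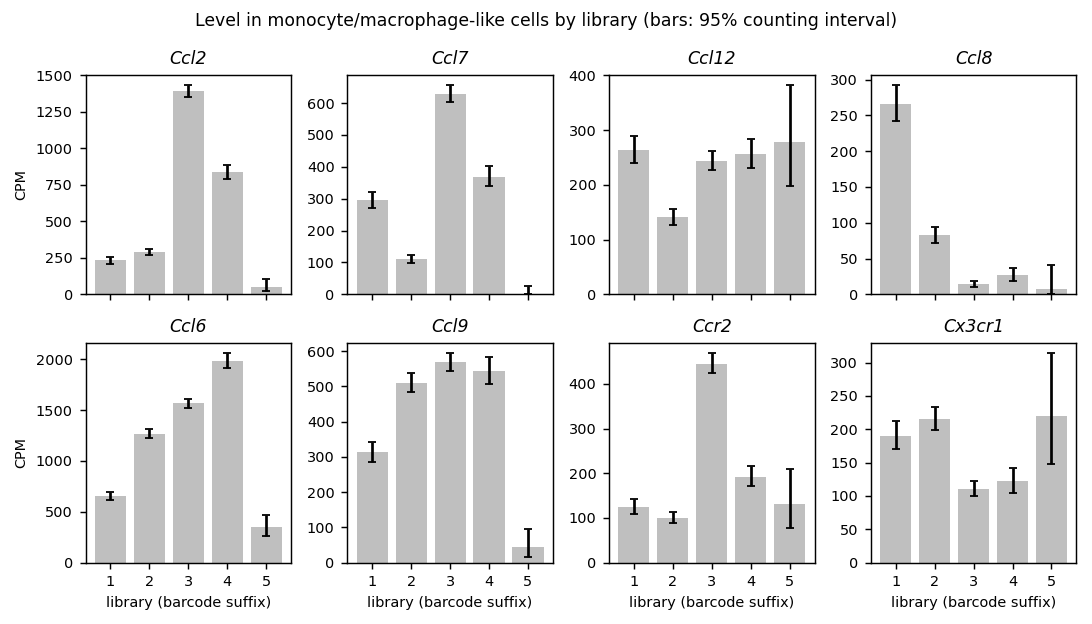
Level in CPM (vertical axes, from 0) of 8 genes in the monocyte/macrophage-like cells of libraries 1 to 5 (horizontal axes), with bars for the level and whiskers for the 95% counting interval. Ccl2, Ccl7 and Ccr2 are highest in library 3, Ccl8 in library 1 and Ccl6 in library 4.

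The sub-classes were spread unevenly over the libraries, and the part of this in these levels was not tested. Library 3 held 264 of the 374 Arg1 macrophage-like and 229 of the 318 classical monocyte-like cells, libraries 1 and 2 held 179 and 150 of the 406 C1q macrophage-like cells, and library 2 held 102 of the 181 Gpnmb macrophage-like cells. Within Arg1 macrophage-like cells Ccl2 was 2587 CPM in library 3 and 1295 CPM in library 4, and Ccl7 1229 and 592 CPM. Without library 3, Ccl2 in this sub-class was 1139 CPM and Ccl7 516 CPM, in place of 2178 and 1028 CPM. Within C1q macrophage-like cells Ccl2 still ranged over libraries 1, 2, 3 and 5, at 408, 647, 1688 and 49.95 CPM, and Ccl12 at 575, 416, 1751 and 337 CPM, both highest in the 21 cells of library 3.

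Ccl8 in C1q macrophage-like cells was 622, 257, 12.6 and 12.5 CPM in libraries 1, 2, 3 and 5, which kept library 1 on top within the sub-class. Without library 1 it was 199 CPM in place of 388 CPM. Gpnmb macrophage-like cells had Ccl2 at 58.6, 256 and 1072 CPM in libraries 1, 2 and 4, and Ccl7 at 62.6, 58.9 and 429.6 CPM, with library 4 highest for both. In classical monocyte-like cells Ccl2 was 45.2, 466 and 231 CPM in libraries 2, 3 and 4. Genes of the immediate early and heat shock response, which dissociation of tissue can induce, also differed between these sub-classes and libraries. Their summed level was 13812 CPM in C1q macrophage-like cells and 4626 to 5831 CPM in the other named sub-classes, and 7649.9, 6973, 5619.8, 5926 and 12338 CPM in the monocyte/macrophage-like cells of libraries 1 to 5. In the class this sum was lowest in library 3, where Ccl2 and Ccl7 were highest, and highest in library 5, where Ccl2 was lowest. Within C1q macrophage-like cells it was 12701, 15935, 9009 and 15935 CPM in libraries 1, 2, 3 and 5. It was lowest there in library 3, where Ccl2 and Ccl12 were highest. Neutrophil markers summed to 134, 183, 1471, 239.7 and 103 CPM in the monocyte/macrophage-like cells of libraries 1 to 5, highest in library 3 as Ccl2, Ccl7 and Ccr2 were, and to 353, 4304 and 218 CPM in classical monocyte-like cells of libraries 2, 3 and 4. Cells of highest Scrublet score, the likeliest doublets, were 20.8%, 11.6%, 19.8%, 10.3% and 5.97% of the class in libraries 1 to 5. Proximal tubule markers summed to 3326, 1846, 2159.9, 2319.6 and 4237 CPM in the class and to 406, 312, 919.8 and 2023 CPM in C1q macrophage-like cells of libraries 1, 2, 3 and 5, highest in library 5, where the median depth of the class was 1753 UMIs against 3098 to 4554.5 UMIs elsewhere. The part of these in the chemokine levels was not tested.

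Outside the named leukocytes Ccl2 UMIs lay mainly in clusters without a name (1243 UMIs, 12.5% of the total) and in injured epithelial-like cells. Injured epithelial-like cells (243 cells, led by Havcr1, Ptgds and Gc) held 850 UMIs (8.58% of the total) at 255 CPM (95% interval 238 to 273). They were uneven, since 15.6% of them held a Ccl2 UMI and the richest 10% of them held 96.9% of the UMIs. By library the level was 471, 214, 39.6 and 303 CPM in libraries 1 to 4. The sum of the 12 monocyte/macrophage markers was 54.1 CPM there and 24937 CPM in monocyte/macrophage-like cells, and the part of droplets that hold both was not tested. Ccl7 was lower relative to Ccl2 in these cells than in macrophages, with 83 UMIs (24.9 CPM).

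Among the clusters without a name was a group of 94 cells led by Ccl2, Ccl7 and Mgp, with Ccl2 at 1540.2 CPM (95% interval 1326 to 1779) and Ccl7 at 191 CPM. All 185 Ccl2 UMIs of the group lay in its 78 cells from library 1, and none in its 16 cells from library 2. Acta2 and Tagln, markers of smooth muscle and pericytes, were detected in 53.2% and 46.8% of the cells and Col1a2 in 20.2%, while Pdgfra had no UMI and Dcn was in 2.13%. The 10 fibroblast/pericyte markers summed to 2156 CPM (5 of them in at least 10% of cells), below the 10 proximal tubule markers at 3189 CPM (7 of them), with 799 CPM of monocyte/macrophage markers. The endothelial markers Pecam1, Cdh5, Kdr and Flt1 had no UMI. Ccl6, Ccl9 and Ccr2 were at 0 UMIs, where 3 UMIs would have made 24.98 CPM, and the median depth was 907 UMIs, a shallow group. In the 64 fibroblast/pericyte-like cells Ccl2 was at 0 UMIs, where 3 would have made 14.9 CPM. Another unnamed group, 310 cells led by Tagln, Map1b and Ncam1, had Ccl2 at 146 CPM, of which a single cell held 171 of the 467 UMIs. Endothelial-like cells had 61 Ccl2 UMIs, of which 47 lay in 1 cell.

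In library 1, 387 Ccl2 UMIs lay in monocyte/macrophage-like cells and 1154 in all other cells. In library 3 the same counts were 4731 and 523. The log2 ratio of monocyte/macrophage-like over other cells was 3.45 (3.28 to 3.62) in library 1, 4.55 (4.40 to 4.69) in library 2, 7.93 (7.80 to 8.06) in library 3, 7.03 (6.85 to 7.22) in library 4 and 7.80 (6.22 to 9.26) in library 5. The direction was shared by all 5 libraries, and the sizes of the first pair did not overlap with those of the rest. Leaving out library 3 lowered the macrophage share of all Ccl2 UMIs from 72.0% to 51.5%, and leaving out library 1 lifted it to 80.6%.

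Ccl6 and Ccl9 were spread over more of the sub-classes than the Ccr2 ligands. Ccl6 was high in Arg1 macrophage-like (2475 CPM), Gpnmb macrophage-like (2315 CPM), classical (1634 CPM) and non-classical monocyte-like cells (991 CPM), and lowest in C1q macrophage-like cells (273 CPM). In library 4 the pooled first place of Arg1 macrophage-like cells did not hold, with Ccl6 at 2168 CPM there, 2535 CPM in classical monocyte-like and 2668 CPM in Gpnmb macrophage-like cells, and Ccl9 at 760.4 CPM against 1049.6 CPM in classical monocyte-like cells. Ccl6 was detected in 91.5% of classical monocyte-like cells. Ccl9 had the same lowest sub-class, at 247 CPM in C1q macrophage-like and 274 CPM in non-classical monocyte-like cells, whose intervals overlapped, and 669.6 to 879 CPM in the other 3. By library, Ccl6 in monocyte/macrophage-like cells was 653, 1269, 1566, 1986 and 352 CPM and Ccl9 313, 509, 568, 544 and 44.0 CPM in libraries 1 to 5, both lowest in library 5. Within C1q macrophage-like cells Ccl6 kept to 286, 282, 164 and 237 CPM in libraries 1, 2, 3 and 5, and within Gpnmb macrophage-like cells to 2393, 2212 and 2668 CPM in libraries 1, 2 and 4.

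Neutrophil-like cells separated the pair. They held 3400 Ccl6 UMIs at 919 CPM (95% interval 889 to 951) and 137 Ccl9 UMIs at 37.0 CPM. Over all other cells the log2 ratio was 4.27 (95% interval 4.22 to 4.32) for Ccl6 and 0.94 (95% interval 0.68 to 1.18) for Ccl9, and Ccl6 was the 1 member at least 4-fold higher in neutrophil-like cells, against 5.36% of genes. Ccl6 was high in each of libraries 1 to 4, at 1712, 909, 944 and 686 CPM. Among the 4 neutrophil-like sub-clusters it ran from 192 CPM in 219 cells led by Timp3, Ccn1 and Tmem252, whose summed proximal tubule markers were 9153 CPM, to 2598 CPM in 165 cells led by Ccl3, Itpr2 and Cstb.

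Dendritic-like cells, which carry antigen to T cells, were the other class with both genes, Ccl6 at 451 CPM and Ccl9 at 339 CPM. Together with Ccr2 and Cx3cr1 they made 4 members at least 4-fold higher there, against 7.52% of genes. Library 3 was lowest for both genes, with Ccl6 at 584, 574, 89.4 and 447 CPM and Ccl9 at 491, 414, 79.3 and 232 CPM in libraries 1 to 4. Much of it came from a sub-cluster of 72 cells led by Retnla, Mmp12 and Lyz1, with Ccl6 at 2395 CPM, Ccl9 at 1436 CPM and Ccr2 at 669 CPM, in which the 12 monocyte/macrophage markers summed to 15033 CPM. Without it (a choice made after seeing the data) the dendritic-like level of Ccl6 was 144 CPM and no longer 4-fold higher, with a log2 ratio of 1.42 (95% interval 1.28 to 1.57) in place of 3.07, so that 3 members stayed 4-fold higher (Ccl9 at 3.34, Ccr2 at 4.51 and Cx3cr1 at 2.62).

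Ccr2, the receptor of the Ccl2 group, was highest in classical monocyte-like cells, at 707 CPM (95% interval 659.8 to 757). Over all libraries it was followed by Arg1 macrophage-like (460.2 CPM), dendritic-like (273 CPM) and non-classical monocyte-like cells (265 CPM), of which the last pair had overlapping intervals. The second place rested on library 3, since in library 4 Arg1 macrophage-like cells were at 248 CPM and dendritic-like cells at 255 CPM, and non-classical monocyte-like cells were at 86.9 CPM in library 2 and 343 CPM in library 3. C1q macrophage-like (116 CPM), T/NK-like (94.3 CPM) and Gpnmb macrophage-like cells (47.5 CPM) came next, and neutrophil-like cells had 10 UMIs (2.70 CPM). The share of cells with a UMI was 80.2% (95% interval 75.4% to 84.4%) in classical monocyte-like, 61.2% in Arg1 macrophage-like, 46.6% in dendritic-like, 20.4% in C1q macrophage-like and 16.8% in T/NK-like cells, at median depths of 3691.5, 3708.5, 4511, 3255 and 1758 UMIs. At 1000 UMIs per cell these shares were 46.7%, 36.6%, 23.6%, 8.03% and 10.5%, in the same order for the first 3, while C1q macrophage-like and T/NK-like cells changed places.

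Cx3cr1 had another order. It was highest in C1q macrophage-like (347 CPM (95% interval 317 to 379.7)) and non-classical monocyte-like cells (274 CPM (95% interval 212 to 348)), whose intervals overlapped. In the marker gate on single cells the C1q level was 168 CPM. Arg1 macrophage-like (159 CPM) and Gpnmb macrophage-like cells (131 CPM) followed, again with overlapping intervals, then classical monocyte-like cells (77.4 CPM), dendritic-like cells (37.2 CPM) and T/NK-like cells (4.37 CPM). In classical monocyte-like cells over all other monocyte/macrophage-like cells the log2 ratio was 1.99 (95% interval 1.87 to 2.11) for Ccr2 and -1.14 (95% interval -1.46 to -0.83) for Cx3cr1. Ccr2 kept its direction in each library with enough cells, at 3.33 (2.94 to 3.71) in library 2, 1.12 (0.97 to 1.27) in library 3 and 2.03 (1.65 to 2.40) in library 4. Cx3cr1 was -0.59 (-1.41 to 0.12), -0.88 (-1.31 to -0.48) and -0.44 (-1.34 to 0.35) in the same libraries, and the interval excluded 0 in library 3 alone.

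**Figure D5:**
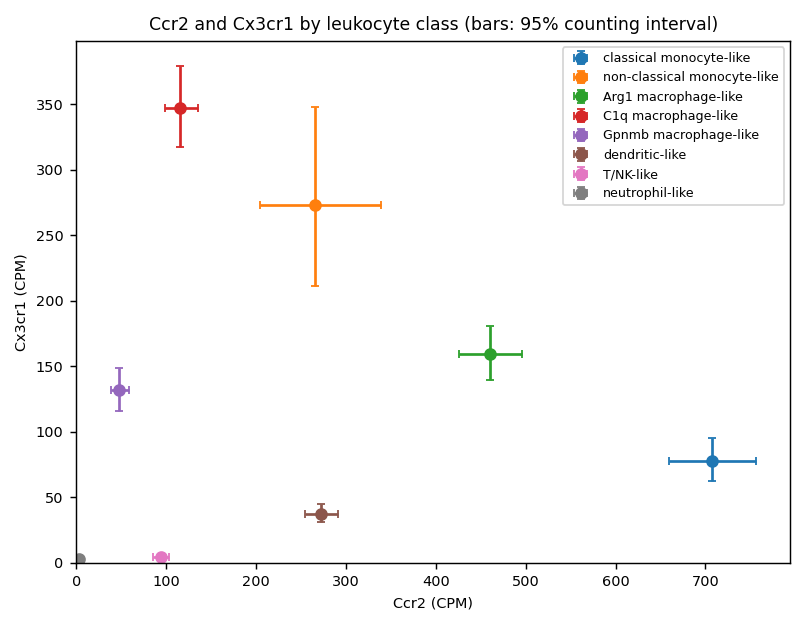
Ccr2 (horizontal axis) against Cx3cr1 (vertical axis), both in CPM, in 8 leukocyte classes, with bars for the 95% counting interval. Classical monocyte-like cells lie farthest to the right (707 CPM of Ccr2) and C1q macrophage-like cells farthest up (347 CPM of Cx3cr1).

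By library, Ccr2 in monocyte/macrophage-like cells was 125, 99.7, 446, 192 and 132 CPM and Cx3cr1 191, 216, 110.4, 122 and 219.9 CPM in libraries 1 to 5. Library 3, which held most classical monocyte-like cells, was highest for Ccr2 and lowest for Cx3cr1, where its interval overlapped that of library 4. Within classical monocyte-like cells Ccr2 was 733, 744 and 594 CPM in libraries 2, 3 and 4, and within C1q macrophage-like cells 137, 108, 75.6 and 49.95 CPM in libraries 1, 2, 3 and 5. Within Arg1 macrophage-like cells it was 531 CPM in library 3 and 248 CPM in library 4. Dendritic-like cells were even in Ccr2, at 304, 252, 272 and 255 CPM in libraries 1 to 4. Among their sub-clusters the 67 cells led by Ccl5, Fscn1 and Fabp5 had 2 Ccr2 UMIs (6.19 CPM), below the 111 to 669 CPM of the other 7. T/NK-like cells had Ccr2 at 97.6, 97.3, 60.4, 137 and 153 CPM in libraries 1 to 5, and 231 CPM in the 204 cells led by Tyrobp, Gzma and Klra4.

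Cx3cl1, the ligand of Cx3cr1, lay almost wholly outside the leukocytes. Among named classes pooled over libraries it was highest in endothelial-like (81.7 CPM (95% interval 70.0 to 94.8)) and podocyte-like cells (81.5 CPM (95% interval 57.4 to 112)), followed by thick ascending limb-like (61.4 CPM), collecting duct principal-like (51.7 CPM) and distal convoluted tubule-like cells (40.8 CPM). The first 3 had overlapping intervals. Proximal tubule-like cells had 12.3 CPM, and by their number held 55.9% of all Cx3cl1 UMIs. Within the endothelial-like cells, 104 cells led by Ehd3, Kdr and Fabp4, as in glomerular endothelium, had 311 CPM, against 22.0 CPM in 210 cells led by S100a4, Fbln5 and Cd93 and 50.6 CPM in 41 cells led by Aqp1, Ctla2a and Slc14a1. An unnamed group of 95 cells led by Ednrb, Hbb-bs and Ehd3, all from library 2, had 427 CPM. This group was mixed, with endothelial markers summed to 7920 CPM, podocyte markers to 6411 CPM and erythroid markers to 9283 CPM. Its median depth was 993 UMIs.

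By library Cx3cl1 in endothelial-like cells was 79.8, 155, 18.1, 52.2 and 65.4 CPM in libraries 1 to 5, highest in library 2, and without that library 54.4 CPM. The first place was lost within libraries 1, 3 and 4, to thick ascending limb-like cells in library 1 (85.2 CPM) and to distal convoluted tubule-like cells in libraries 3 and 4, with overlapping intervals in libraries 1 and 4. Distal convoluted tubule-like cells were even across libraries 1 to 4 and lower in library 5, at 52.0, 54.3, 51.0, 53.3 and 11.6 CPM. Proximal tubule-like cells stayed between 9.29 and 17.2 CPM. In podocyte-like cells, at a median of 806 UMIs, the level rested on 37 UMIs, of which 1 cell held 11.

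In single monocyte/macrophage-like cells thinned to 1000 UMIs, the neighbours Ccl2 and Ccl7 were often seen together. Ccl7 was found in 36.9% of the 398 cells with Ccl2 and in 4.46% of those without, and Ccl2 in 71.4% of the 206 cells with Ccl7 and 16.6% of those without. For Ccl12 given Ccl2 the shares were 23.9% and 6.72%, and for Ccl9 given Ccl6 44.7% and 16.9%. Ccl8 and Ccl12, which shared their highest sub-class, were not seen together more often within it, though few cells held Ccl8. Among the 386 thinned C1q macrophage-like cells Ccl12 was found in 13.2% of the 38 cells with Ccl8 and 23.6% of those without. Cells with Ccr2 more often held Ccl6 (62.5% against 37.3%) and about as often held Ccl2 (25.3% against 22.5%) and Cx3cr1 (15.6% against 15.8%). These shares describe cells of pooled libraries that also differ in sub-class, and they carry no test.

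Other genes of the pathway were taken from lists of 54 genes. Of the other CC ligands, 10 of 13 had at least 200 UMIs, and 3 of the 10 were at least 4-fold higher in monocyte/macrophage-like cells (Ccl3, Ccl4 and Ccl24), against 7.63% of all genes tested, with a list median log2 ratio of -0.21 against -0.40. Ccl3 and Ccl4 were highest in C1q macrophage-like cells (1733 and 6505 CPM), Ccl24 in Arg1 macrophage-like cells (93.8 CPM), Ccl5 in T/NK-like cells (4318 CPM), and Ccl17 and Ccl22 in dendritic-like cells (499 and 169 CPM). Ccr1, through which Ccl6 and Ccl9 act, was highest in neutrophil-like cells (438 CPM) and Ccr7 in dendritic-like cells (516 CPM).

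Among inducers and NF-kB genes 5 of 6 tested were at least 4-fold higher in monocyte/macrophage-like cells, again against 7.63% of genes, with a median of 3.35, and Il1b reached 6086 CPM in C1q macrophage-like cells. With the class taken as a whole, Il1b and Nfkbia were higher in neutrophil-like cells (5743 and 2358 CPM, against 2087 and 1043 CPM in monocyte/macrophage-like cells). For Il1b this was below the level of C1q macrophage-like cells. Nfkb1 and Il6 were higher in dendritic-like cells than in the whole class (184 and 15.3 CPM, against 92.1 and 9.27 CPM). Its classical monocyte-like cells had Il6 at 33.2 CPM, on 39 UMIs. Tnf was at 145 CPM in monocyte/macrophage-like and 144 CPM in neutrophil-like cells. Of 7 genes of receptor signalling 4 were at least 4-fold higher in monocyte/macrophage-like cells (Gnai2, Arrb2, Rac2 and Pik3cg, median 2.01), against the same 7.63%. Rac2 and Arrb2 were at 466 and 95.7 CPM in neutrophil-like cells, against 192 and 93.8 CPM in monocyte/macrophage-like cells. Gnai2 and Pik3cg were at 603 and 19.4 CPM in dendritic-like cells, against 582 and 19.1 CPM. Of the 3 proteases that shed or cut Cx3cl1, Adam17 and Ctss were at least 4-fold higher in monocyte/macrophage-like cells and Adam10 was not. Ctss and Adam17 were highest in Gpnmb macrophage-like cells (3649 and 90.8 CPM) and Adam10 in endothelial-like cells (115 CPM). The 1 atypical receptor tested of 4, Ackr3, was highest in injured epithelial-like cells (67.3 CPM). None of 10 immediate early and heat shock genes was 4-fold higher in the class (median 0.26), and 9 of them were at least 2-fold higher in C1q macrophage-like cells than in the other monocyte/macrophage-like cells, against 6.97% of genes (median 1.51 against -0.32).

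Over 19 cell classes (the named classes, with the 5 sub-classes in place of their parent), the genes most like each member were those with the highest Pearson r of log2(CPM + 5) among 13850 genes. The classes share libraries and differ in depth, so r is a description. Ms4a7, Cd68, Ms4a6c and Aif1 below were also among the markers that named monocyte/macrophage-like cells, so their likeness is in part built in. Ccl2 was most like Pdlim4 (r = 0.92), Rap2b (r = 0.91) and Clta (r = 0.91), Ccl7 most like Pf4 (r = 0.95), C3ar1 (r = 0.92) and Rnase4 (r = 0.91), and Ccl12 most like Ms4a7 (r = 0.94), Pf4 (r = 0.94) and C3ar1 (r = 0.93). Ccl8 was closest to Slco2b1 (r = 0.97), Mmp13 (r = 0.94) and Col14a1 (r = 0.93). Ccl6 was closest to Itgam (r = 0.99), Tgfbi (r = 0.98) and Wfdc17 (r = 0.97), and Ccl9 to Clec12a (r = 0.96), Cd68 (r = 0.96) and Guca1a (r = 0.96). Ccr2 was close to Ms4a6c (r = 0.94) and Calhm6 (r = 0.93), Cx3cr1 closest to Lair1 (r = 0.98), Aif1 (r = 0.97) and Tifab (r = 0.96), and Cx3cl1 to Tspan9 (r = 0.97), Galnt18 (r = 0.93) and Zfp580 (r = 0.92). Pf4 and C3ar1 were thus on the lists of both Ccl7 and Ccl12.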

How the data were processed

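Single-cell RNA sequencing (10x Chromium, 3′ chemistry v3.1) was performed on kidney from sham and UIR mice. The authors aligned reads to mm10 and deposited 1 matrix of raw UMI counts with 32285 genes as rows and 10474594 barcodes as columns, in which Cell Ranger (6.0 per the labels, 6.0.1 per the file header) had joined 5 libraries before any cell was called. Cell Ranger drops reads that fit more than 1 gene. The deposited barcode and gene lists hold names, a unit of other kind. No further per-sample columns (0) were used.

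Cells were called here per library by Cell Ranger's steps: a barcode passed if its UMIs reached 10% of a reference depth (the 99th percentile among the 3000 deepest), or, failing that, if it had at least 500 UMIs and differed from the ambient profile (ranks 45000 to 90000, 10000 simulations, adjusted p of at most 0.01). At most 20000 barcodes per library were tested against the ambient profile. Library 3 reached that limit, and its shallowest tested barcode had 661 UMIs. Of 70273 called, 512 with fewer than 200 genes and 12613 with over 25% mitochondrial counts failed, some on both, and 57609 were kept. Counts were log-normalised, and 2000 variable genes without the 9 members and 54 pathway genes gave 30 components, 20 neighbours and 28 Leiden clusters (resolution 1.0; scanpy 1.11.5, leidenalg 0.10.2, Python 3.11.15). Clusters were named from marker lists where at least 3 markers were detected and no second class was close. Mixed clusters were split again at 0.5 and monocyte/macrophage-like cells at 1.0, both chosen after the clusters were seen. Doublets were kept, and removed by Scrublet score in an alternative (5903 cells).

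CPM is UMIs of a gene per 1000000, summed over a class. Intervals (95%) are exact Poisson for CPM, Clopper-Pearson for shares and exact conditional binomial for log2 ratios, and treat UMIs as independent. Ratios were computed for genes with at least 200 UMIs. Cells were also thinned to 1000 UMIs, which left out 7673 shallower cells. A level against 0 is set by 3 UMIs. Per-library levels need at least 20 cells. Calling and ratios were tested on simulated data. All samples stayed 1 pooled sample, so no test between groups was made. Genes named are the members, pathway-list genes highest or lowest in a class, the 3 genes most like each member and the 3 leading genes of each cluster named. The members and lists were chosen with earlier results of these data known. Some results of the receptor list and of the genes most like a member are not reported here. Protein sequences were not used here.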

Additional observations from a re-analysis of the deposited data

Results flagged for a closer look

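The members were also counted in barcodes below the cells (ranks 45000 to 90000 by UMIs in each library), which gave the ambient profile for cell calling and enter no comparison. All 9 had UMIs there above the 3 that a count of 0 allows, which is why they are listed, and there are no control samples to set them against. Over the 5 libraries the level was 51.1 CPM for Ccl2, 42.6 for Ccl7, 23.8 for Ccl6, 9.85 for Cx3cl1, 8.35 for Ccl9, 6.52 for Ccl8, 3.75 for Ccr2, 2.48 for Ccl12 and 1.44 for Cx3cr1. Ccl2 stood at 12.4, 14.1, 41.3, 133 and 23.8 CPM and Ccl7 at 6.49, 4.45, 27.9, 128 and 21 CPM in libraries 1 to 5, both highest in library 4. Ccl6 was highest in library 2 instead, at 113 CPM. In library 5 these barcodes held 132 Ccl7 and 150 Ccl2 UMIs, while its 9091 kept cells held 0 Ccl7 UMIs and 19 Ccl2 UMIs among 52211278. Over all kept cells the levels were 31.0 CPM for Ccl2, 12.6 CPM for Ccl7 and 7.19 CPM for Ccl12, and the order against these barcodes differed between libraries. Ccl2 was higher in kept cells in libraries 1 to 3 (27.4, 23.8 and 55.4 CPM) and lower in libraries 4 and 5 (30.1 and 0.364 CPM). Ccl7 was higher in kept cells in libraries 1 and 2 (12.9 and 5.91 CPM) and lower in libraries 3, 4 and 5. In libraries 2 and 3 the Ccl7 intervals overlapped, at 5.33 to 6.53 CPM in kept cells against 2.22 to 7.96 CPM, and 24.0 to 26.0 against 25.1 to 31.0 CPM.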

How the results depend on the processing

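The count of members at least 4-fold higher in monocyte/macrophage-like cells was 8 under all 15 alternatives run (cell calling, mitochondrial and gene limits, doublets, a marker gate on single cells, Leiden resolution, clustering features, averaging, dendritic-like cells, each library left out, and a coarser split of the monocyte/macrophage-like cells). The coarser split left the class itself unchanged, so it could not alter this count. The Ccr2 and Cx3cr1 ratios in classical monocyte-like cells kept their direction wherever they had a value. The levels and the share that were also recomputed have no direction to change. The ratios of the other sub-classes were not recomputed under these alternatives. They were recomputed within libraries, where Ccl8 in Arg1 macrophage-like cells turned from -1.29 to 2.05 and 1.96 (libraries 3 and 4) and Ccr2 in C1q macrophage-like cells from -1.20 to 0.23 and 0.14 (libraries 1 and 2). For the rest the values below moved by more than their counting interval, and the cause was not tested. The log2 ratio of Ccr2 in classical monocyte-like cells, 1.99, was 1.86 without doublets, 1.82 with the marker gate, 1.75 as a mean over cells and 1.79 with dendritic-like cells, and 1.63 to 2.53 with 1 library left out (lowest without library 2, highest without library 3). The Cx3cr1 ratio, -1.14, was -0.79 with dendritic-like cells, and stayed within its interval elsewhere (-1.35 without doublets, -1.25 to -0.86 with 1 library left out). The macrophage share of Ccl2 UMIs, 72.0%, was 74.7% at a mitochondrial limit of 10%, 69.8% with the marker gate, 74.0% at Leiden resolution 2.0, 73.2% with members among the clustering features, 72.9% with dendritic-like cells, and 51.5% to 80.6% with 1 library left out (lowest without library 3, highest without library 1). Levels in Arg1 macrophage-like cells ranged over the alternatives from 1139 to 2537 CPM for Ccl2, 516 to 1258 CPM for Ccl7, 2082 to 2654 CPM for Ccl6 and 733 to 935 CPM for Ccl9. Under the marker gate Ccl8 in C1q macrophage-like cells was 105 CPM (388 CPM from clusters), Ccl12 273 CPM (588 CPM) and Cx3cr1 168 CPM (347 CPM). At resolution 0.5 (added after seeing the data) classical and non-classical monocytes merged into 416 cells without a name, so the ratios have no value there, and averaging over cells gives none for the share. No paired analysis was possible because each group has 1 sample and cells could not be tied to samples. Depth limits the rarest cases: library 5 gave 67 monocyte/macrophage-like cells, Ccl8 rested on 1 UMI in classical monocyte-like cells, and intervals cover counting error only, not animals.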
